A study of Mus musculus with 13 samples.

Results

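The Ikaros family is a small group of zinc finger transcription factors, made up of Ikaros (Ikzf1), Helios (Ikzf2), Aiolos (Ikzf3), Eos (Ikzf4) and Pegasus (Ikzf5). Its 5 members were taken by gene symbol from a table of 43629 mouse genes, of which 26629 had a value above 0 in at least 1 library. All 5 passed the filter on low values (10 or more normalized counts in 3 or more libraries) and were tested together with the other genes that passed it, 15872 in all. The series holds RNA sequencing of polyadenylated RNA from cell suspensions of 10 T-cell lymphomas and 3 normal thymuses, each lymphoma from a different mouse. The Atm-/- group had 5 lymphomas from 129S6/SvEv mice that lack ATM, a kinase of the DNA break response. The Rag2c/c p53-/- group had 5 lymphomas from mice of mixed C57BL/6 and 129S6/SvEv background, in which RAG2 lacks its C terminus and p53 is absent. The 3 WT thymuses came from C57BL/6 mice and were sequenced for an earlier series. The source field of the WT samples names a thymic lymphoma, but their genotype reads wild type and their tissue thymus, and they were grouped by genotype. No ages were given.

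Family members bind DNA through a cluster of zinc fingers near the N terminus and pair with themselves and with each other through zinc fingers at the C terminus. Ikaros is required for lymphocyte development and acts in developing T cells largely as a repressor that works with the NuRD chromatin remodelling complex. It restrains genes of the Notch pathway, and its loss in mice leads to T-cell leukemia and lymphoma. Aiolos is expressed in committed lymphoid cells, Helios and Eos are known above all from T cells and regulatory T cells, and Pegasus is the most distant and most widely expressed member.

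The values were normalized counts, which the authors made by dividing the reads of each gene by a size factor for the library. Column totals ran from 19788898 to 21591289. What a read was worth, and so the depth, could be estimated from the spacing of the lowest values in 6 libraries but not in the other 7. The fewest reads were estimated in Rag2c/c p53-/- lymphoma 2, with 6.36 M reads, WT thymus 2, with 6.68 M reads, and Atm-/- lymphoma 2, with 9.21 M reads.

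These 3 libraries are each of another group. When each gene's group mean was taken away, the remaining deviations of the tested genes correlated across genes with r = 0.274 between Atm-/- lymphoma 2 and Rag2c/c p53-/- lymphoma 2. The value was 0.197 between Rag2c/c p53-/- lymphoma 2 and WT thymus 2, and 0.163 between Atm-/- lymphoma 2 and WT thymus 2. In the other 52 pairs of libraries from different groups r ran from -0.188 to 0.183, a range that holds the lowest of the 3 values. Across 9648 genes with a mean of at least 200, the deviations went down with the log2 exon length of the gene in all 3, with r = -0.266 in Atm-/- lymphoma 2, -0.415 in Rag2c/c p53-/- lymphoma 2 and -0.324 in WT thymus 2. In the other 10 libraries this r ran from -0.18 to 0.451. Genes are not independent replicates, so these values are descriptions. The log2 differences of the members from WT are given with and without these 3 libraries, a choice made after the data were seen.

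Expressed per kilobase of exon, Ikzf1 was the most abundant member and Ikzf4 the least abundant in all 13 libraries. In WT thymus Ikzf1 stood at 3049 ± 392 normalized counts per kb (mean ± SD, n = 3 thymuses), above 99.1% of the tested genes with a known length. Ikzf3 came next at 806.5 ± 66.9, above 90.7% of genes. Ikzf2 followed at 302.6 ± 44.8 and Ikzf5 at 269.9 ± 2.29, a difference within the spread of Ikzf2. Ikzf4 was the lowest at 76.0 ± 6.50, above 41.9% of genes.

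The order of the outer members was the same in the lymphomas. In the Atm-/- group the levels per kb were 2227 ± 775 for Ikzf1, 542.6 ± 250.1 for Ikzf3, 191.4 ± 11.4 for Ikzf5, 148.9 ± 103 for Ikzf2 and 17.9 ± 9.50 for Ikzf4 (mean ± SD, n = 5 lymphomas). In the Rag2c/c p53-/- group they were 2315 ± 759 for Ikzf1, 464.4 ± 215 for Ikzf3, 175 ± 61.3 for Ikzf5, 113.8 ± 67.4 for Ikzf2 and 8.84 ± 5.84 for Ikzf4. Ikzf2 and Ikzf5, which lie next to each other in this order, changed places: Ikzf2 was above Ikzf5 per kb in 2 of 3 thymuses, in 1 of 5 Atm-/- lymphomas and in 0 of 5 Rag2c/c p53-/- lymphomas. Ikzf1 was 2.89 to 6.81 times Ikzf3 per kb over the 13 libraries. Of the summed level of the family per kb, Ikzf1 made up 67.5% in WT thymus, 70.2% in Atm-/- lymphomas and 75.5% in Rag2c/c p53-/- lymphomas, while Ikzf4 made up 1.69%, 0.658% and 0.317%. The Ikzf4 share of the Atm-/- group was carried by lymphoma 2, with 1.67% against 0.344% to 0.448% in the other 4.

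**Figure D1:**
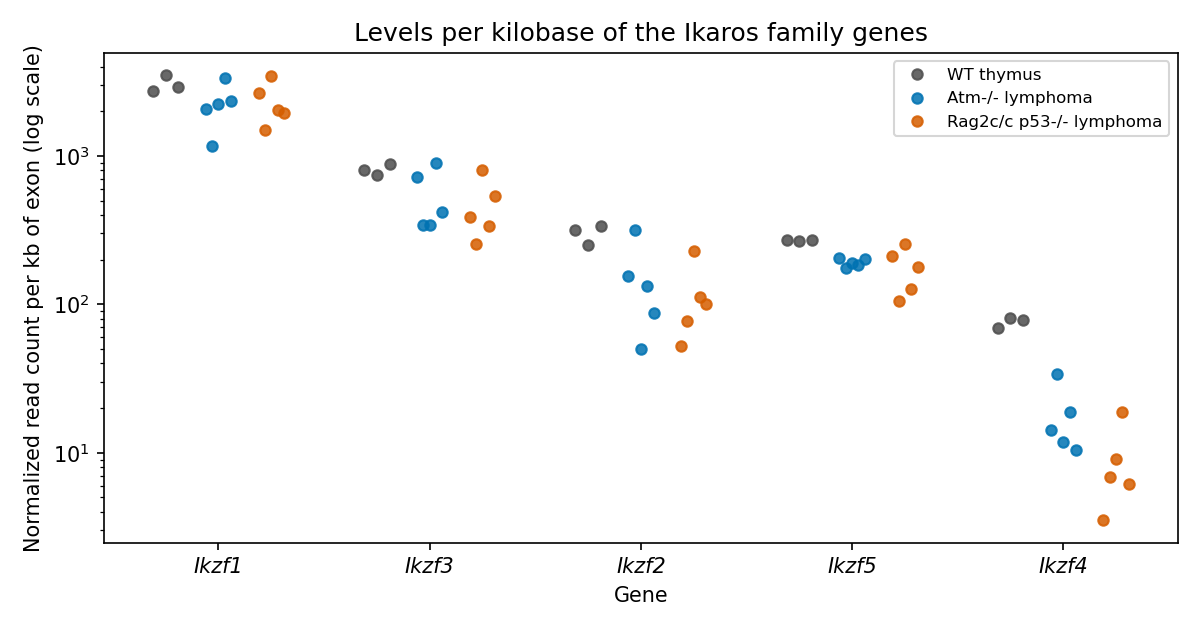
Normalized count per kilobase of exon of the 5 family genes, on a log axis, with 1 point per library and groups by colour. Ikzf1 is highest and Ikzf4 lowest in all 13 libraries, and Ikzf4 of every lymphoma lies under the 3 WT thymuses.

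Sequences of 3 members are shown in a window of 63 bases. It codes for a zinc finger of the C-terminal pair through which the proteins bind each other. This window was chosen because it was the zinc finger of Ikzf1 most alike in the other members. High identity was thus fixed by the choice and does not measure how related the whole genes are. The windows were cut from GENCODE transcripts. They lie in the GRCm38 genome at chr11:11769411-11769473 on the plus strand for Ikzf1 and, on the minus strand, at chr1:69538870-69538932 for Ikzf2 and chr7:131391739-131391801 for Ikzf5. Capitals mark bases that differ from Ikzf1.
Ikzf1: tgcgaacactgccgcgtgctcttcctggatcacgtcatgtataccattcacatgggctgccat
Ikzf2: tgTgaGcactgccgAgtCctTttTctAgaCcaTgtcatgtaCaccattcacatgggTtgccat
Ikzf5: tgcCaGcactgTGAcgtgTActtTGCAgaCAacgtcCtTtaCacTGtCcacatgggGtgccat
Identity to Ikzf1 in this window was 82.5% for Ikzf2 and 68.3% for Ikzf5, the most distant member.

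The comparisons with WT thymus ask how far the family's transcripts in each kind of lymphoma differ from those of the normal organ, and they share the same 3 thymuses. In both, the mean of every member was lower in the lymphomas than in WT thymus. The largest differences were those of Ikzf4, whose mean was 23.5% of the WT mean in Atm-/- lymphomas and 11.6% in Rag2c/c p53-/- lymphomas. Ikzf2 had 37.6% of the WT mean in Rag2c/c p53-/- lymphomas. In RNA from whole cell suspensions, fewer cells that carry a transcript and less of it per cell cannot be told apart. Strain and series of origin differ between the groups as well and cannot be told apart from genotype or from tumor.

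Ikzf1 (ENSMUSG00000018654, chr11:11685003-11772926, GRCm38) encodes Ikaros, the founding member. Its normalized counts were 15935, 20186 and 16713 in WT thymuses 1 to 3. In Atm-/- lymphomas 1 to 5 they were 11982, 6705, 12849, 19270 and 13530. In Rag2c/c p53-/- lymphomas 1 to 5 they were 15346, 8646, 19950, 11751 and 11169. Both lymphoma groups overlapped the thymuses through their highest library, and no lymphoma was near 0. Ikzf1 averaged 17611 ± 2263 in WT thymus (mean ± SD, n = 3), 12867 ± 4478 in Atm-/- lymphomas and 13372 ± 4387 in Rag2c/c p53-/- lymphomas (n = 5 each). The log2 difference from WT was -0.52 (SE 0.30, limma adjusted p = 0.175) in the Atm-/- group. It was -0.45 (SE 0.30, limma adjusted p = 0.261) in the Rag2c/c p53-/- group. Without the 3 libraries of fewest reads the Ikzf1 values were smaller, -0.21 and -0.20.

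Ikzf3 (ENSMUSG00000018168, chr11:98464902-98546031) encodes Aiolos, which follows Ikaros in lymphoid cells. WT thymuses 1 to 3 had 6979, 6520 and 7682 normalized counts. Atm-/- lymphomas 1 to 5 had 6272, 2996, 3001, 7833 and 3649. The 5 Rag2c/c p53-/- lymphomas had, in order, 3416, 2239, 7024, 2936 and 4713. Atm-/- lymphoma 4 lay above every thymus and Rag2c/c p53-/- lymphoma 3 among them, while the other 8 lymphomas lay below all 3 thymuses. The group means of Ikzf3 were 7060.3 ± 585 in WT thymus, 4750.2 ± 2189 in Atm-/- lymphomas and 4066 ± 1885 in Rag2c/c p53-/- lymphomas. Neither difference passed the test, with a log2 difference of -0.69 (SE 0.37, adjusted p = 0.147) for Atm-/- lymphomas. For Rag2c/c p53-/- lymphomas it was -0.91 (SE 0.37, adjusted p = 0.069). The latter rested on Rag2c/c p53-/- lymphoma 3, since Ikzf3 passed without it, at -1.13 with an adjusted p of 0.0204 (range over all alternatives 0.0204 to 0.183). Without the 3 libraries of fewest reads the Ikzf3 values were -0.60 and -0.78.

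Ikzf2 (ENSMUSG00000025997, chr1:69531214-69687245) encodes Helios, found in T cells from early thymic stages on and in most thymic regulatory T cells. Its normalized counts were 3681, 2930 and 3930 in WT thymuses 1 to 3. The 5 Atm-/- lymphomas had, in order, 1814, 3690, 577, 1544 and 1019. Among Rag2c/c p53-/- lymphomas 1 to 5 the values were 605, 895, 2638, 1306 and 1164. Atm-/- lymphoma 2 was as high as the thymuses, the other 4 of its group lay below them, and all 5 Rag2c/c p53-/- lymphomas lay below the lowest thymus. Ikzf2 averaged 3514 ± 521 in WT thymus, 1729 ± 1196 in Atm-/- lymphomas and 1322 ± 783 in Rag2c/c p53-/- lymphomas. A gene was called at a Benjamini-Hochberg adjusted p under 0.05 in limma, a log2 fold change of 1 or more in size and a mean of 10 or more in either of the groups. Ikzf2 fell in Rag2c/c p53-/- lymphomas, with a log2 fold change of -1.58 (SE 0.51, 95% confidence interval -2.68 to -0.47, adjusted p = 0.0278). This call was lost without Rag2c/c p53-/- lymphoma 1 (-1.34, adjusted p = 0.0539), Rag2c/c p53-/- lymphoma 2 (-1.48, 0.0521), WT thymus 1 (-1.54, 0.0863), WT thymus 2 (-1.70, 0.0571) or WT thymus 3 (-1.49, 0.0956). In Atm-/- lymphomas the log2 difference of Ikzf2 was -1.28 (SE 0.51, adjusted p = 0.057), which was not called. It became a call without Atm-/- lymphoma 2 (-1.62, adjusted p = 0.0117). At an unchanged -1.28 it was also called without Rag2c/c p53-/- lymphoma 1 (0.0478) or 3 (0.0392), which are outside this comparison. Over all alternatives its adjusted p ran from 0.0117 to 0.154, and that of the Rag2c/c p53-/- comparison from 0.00981 to 0.0956. Without the 3 libraries of fewest reads Ikzf2 was called in both, at -1.75 (adjusted p = 0.0267) in Atm-/- lymphomas and -1.61 (adjusted p = 0.047) in Rag2c/c p53-/- lymphomas.

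Ikzf4 (ENSMUSG00000002578, chr10:128630843-128645991) encodes Eos, a partner of FOXP3 in regulatory T cells. WT thymuses 1 to 3 had 412, 487 and 468 normalized counts. In Atm-/- lymphomas 1 to 5 the values were 85, 203, 71, 113 and 63. Rag2c/c p53-/- lymphomas 1 to 5 had 21, 41, 54, 112 and 37. All 10 lymphomas lay below every thymus, with Atm-/- lymphoma 2 and Rag2c/c p53-/- lymphoma 4 the highest of their groups. Ikzf4 averaged 456 ± 39.0 in WT thymus, 107 ± 56.9 in Atm-/- lymphomas and 53 ± 35.0 in Rag2c/c p53-/- lymphomas. It fell in Atm-/- lymphomas, with a log2 fold change of -2.21 (95% confidence interval -3.25 to -1.17, adjusted p = 0.00265). It fell in Rag2c/c p53-/- lymphomas with a log2 fold change of -3.29 (95% confidence interval -4.34 to -2.25, adjusted p = 0.000267). Both calls held without any 1 library and without the 3 libraries of fewest reads, where the log2 fold changes of Ikzf4 were -2.42 and -3.20. In the 6 libraries where the worth of a read was known, the Ikzf4 value rested on an estimated 151 reads in WT thymus 2, 89, 46 and 60 in Atm-/- lymphomas 2, 3 and 4, 12 in Rag2c/c p53-/- lymphoma 2 and 76 in Rag2c/c p53-/- lymphoma 4. The 95% Poisson interval from counting alone was 413 to 572 normalized counts in WT thymus 2. It was 164 to 251, 52.2 to 95.1 and 86.1 to 145 in the Atm-/- lymphomas, and 21.0 to 70.9 and 88.0 to 140 in the Rag2c/c p53-/- lymphomas. These intervals did not overlap between the thymus and the lymphomas and cover counting error only.

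Ikzf5 (ENSMUSG00000040167, chr7:131388652-131410521) encodes Pegasus, which recognizes other DNA sites than the rest of the family. Its normalized counts were 1556, 1530 and 1546 in WT thymuses 1 to 3. Atm-/- lymphomas 1 to 5 had 1167, 1009, 1089, 1060 and 1151. The 5 Rag2c/c p53-/- lymphomas had, in order, 1211, 598, 1458, 724 and 1015. All 10 lymphomas lay below every thymus, narrowly so in Rag2c/c p53-/- lymphoma 3. The group means of Ikzf5 were 1544 ± 13.1 in the thymuses, 1095 ± 65.1 in Atm-/- lymphomas and 1001 ± 351 in Rag2c/c p53-/- lymphomas. The log2 difference was -0.50 in Atm-/- lymphomas (SE 0.24, adjusted p = 0.102, range over all alternatives 0.00396 to 0.203), never past the threshold on fold, and -0.47 without the 3 libraries of fewest reads. It was -0.70 in Rag2c/c p53-/- lymphomas (95% confidence interval -1.21 to -0.19, adjusted p = 0.0327), which passed the threshold on p but not that on fold. Without the 3 libraries of fewest reads this Ikzf5 value was -0.54, with an adjusted p of 0.0961 (range over all alternatives 0.00764 to 0.0961).

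**Figure D2:**
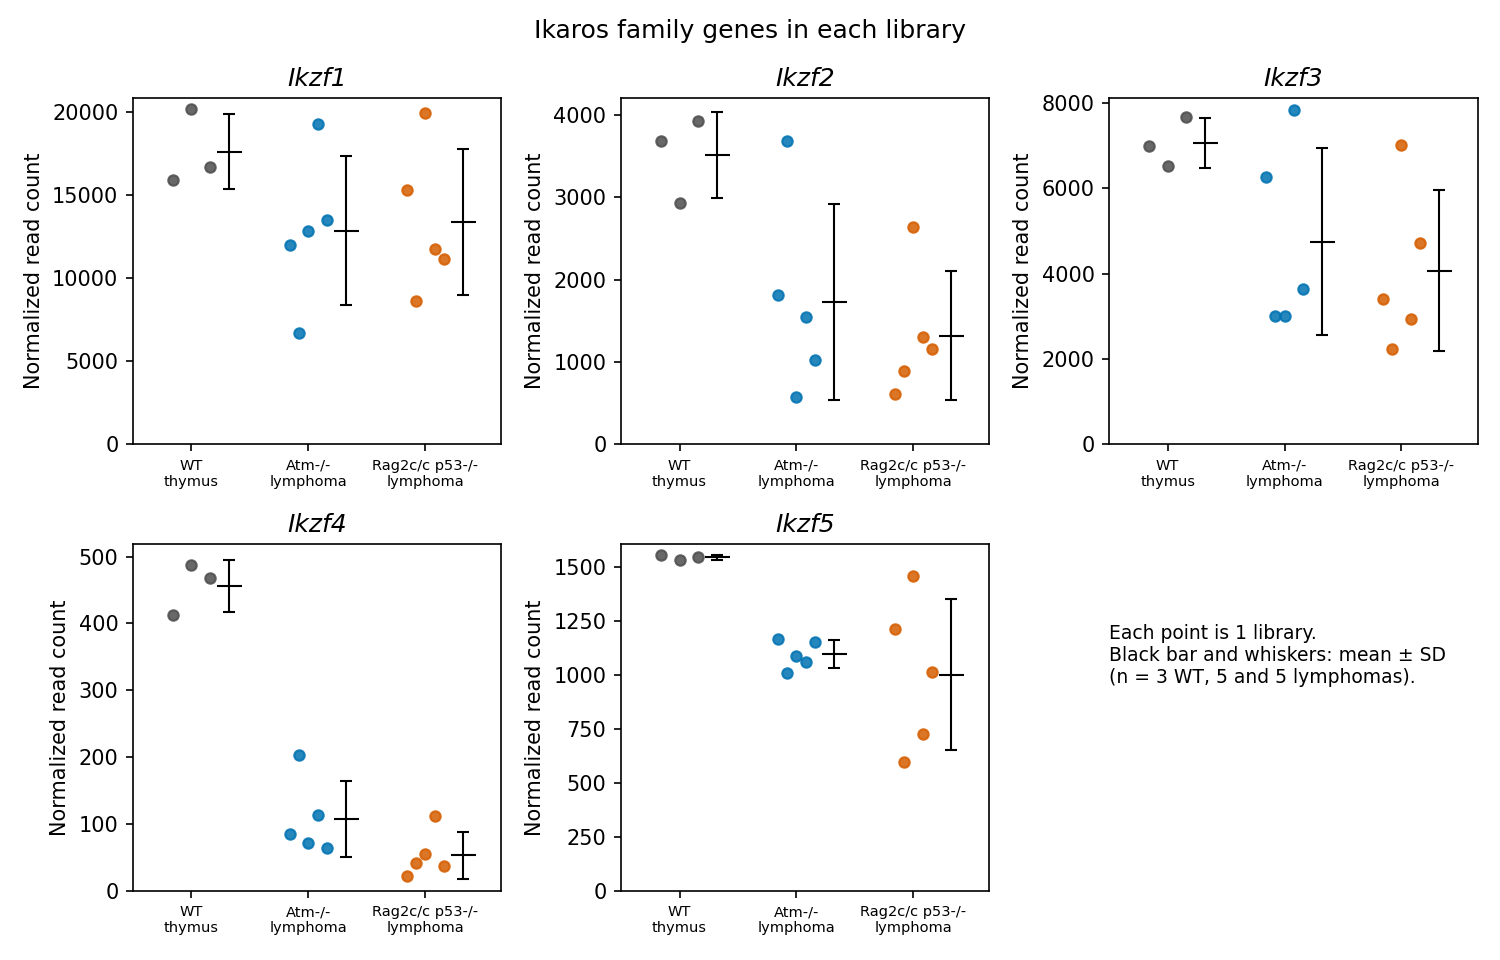
Normalized read count of each family gene, with 1 point per library (grey WT thymus, blue Atm-/- lymphoma, orange Rag2c/c p53-/- lymphoma) and black bars for mean ± SD (n = 3, 5 and 5). Ikzf4 and Ikzf5 of all 10 lymphomas lie below the 3 thymuses, and Atm-/- lymphoma 2 stands highest of its group for Ikzf2 and Ikzf4.

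Counted over the family, 1 of 5 members was called lower in Atm-/- lymphomas than in WT thymus, where 17.0% of the 15872 genes tested were called lower. Groups without overlap, all lymphomas below all thymuses, were found for 2 members (Ikzf4 and Ikzf5), against 27.9% of the genes tested. The log2 difference was under 0 for 5 of 5 members, against 50.6% of the genes tested, and its median was -0.69 for the family and -0.02 for all genes tested. In Rag2c/c p53-/- lymphomas 2 of 5 members, Ikzf2 and Ikzf4, were called lower, where 13.9% of the genes tested were. There, 3 members (Ikzf2, Ikzf4 and Ikzf5) did not overlap with WT thymus, against 24.2% of the genes tested. All 5 had a log2 difference under 0, against 50.7% of the genes tested, with a median of -0.91 for the family and -0.02 for all genes tested. Scaling the libraries by recomputed size factors or to equal totals turned none of these 10 signs. Such scalings shift all genes of a library alike and moved the median log2 difference by only -0.008 to 0.009, so they cannot test the signs. With 1 library left out the number called was 1 to 2 in Atm-/- lymphomas and 1 to 3 in Rag2c/c p53-/- lymphomas, through the calls of Ikzf2 and Ikzf3 given above.

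The comparison of the lymphoma groups asks whether the family differs between tumors of different genetic origin. None did by the test: limma called 0 of 5 members, where 7.84% of the genes tested were called, and 1 of 5 had an unadjusted p under 0.05, against 26.2% of the genes tested. That member was Ikzf4, which was higher in Atm-/- than in Rag2c/c p53-/- lymphomas by 1.08 on the log2 scale (95% confidence interval 0.18 to 1.98, adjusted p = 0.117). The call turned on Rag2c/c p53-/- lymphoma 4, the highest Ikzf4 value of its group with 112, without which the difference was 1.40 with an adjusted p of 0.0339 (range over all alternatives 0.0339 to 0.283), and it was 0.78 without the 3 libraries of fewest reads. Differences of the other members, Atm-/- minus Rag2c/c p53-/-, were -0.07 for Ikzf1 (adjusted p = 0.896), 0.30 for Ikzf2 (0.73), 0.22 for Ikzf3 (0.717) and 0.20 for Ikzf5 (0.588). The sign turned without Atm-/- lymphoma 2 for Ikzf1 (0.14) and Ikzf2 (-0.04), and without Rag2c/c p53-/- lymphoma 3 for Ikzf1 (0.09). It also turned for Ikzf2 without the 3 libraries of fewest reads (-0.14). The median difference was 0.22 for the family and 0.02 for all genes tested.

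The members varied more among lymphomas than among thymuses. The coefficient of variation of Ikzf2 was 14.8% in WT thymus, 69.2% in Atm-/- lymphomas and 59.3% in Rag2c/c p53-/- lymphomas. For Ikzf4 it was 8.56%, 53.2% and 66.1%. Ikzf5 was the steadiest in Atm-/- lymphomas, with 5.95% there, 0.849% in WT thymus and 35.0% in Rag2c/c p53-/- lymphomas. Atm-/- lymphoma 2 combined the highest Ikzf2 and Ikzf4 of its group with the lowest Ikzf1, Ikzf3 and Ikzf5. In the Rag2c/c p53-/- group lymphoma 3 had the highest Ikzf1, Ikzf2, Ikzf3 and Ikzf5, and lymphoma 2 the lowest Ikzf1, Ikzf3 and Ikzf5. Lymphoma 2 of each group is among the 3 libraries of fewest estimated reads. Their deviations went down with exon length, with r = -0.266 in the Atm-/- and -0.415 in the Rag2c/c p53-/- lymphoma. The part of this in the patterns and in the spread was not tested.

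The proteins that family members work with were described by lists of cofactors, and together with known target genes they held 45 genes, of which 43 were tested. Against WT thymus, 6 of the 43 were called in Atm-/- lymphomas (14.0%, against 29.5% of all genes tested), 2 higher and 4 lower, with a median log2 difference of -0.10. In Rag2c/c p53-/- lymphomas 2 were called (4.65%, against 23.6% of all genes tested), 1 in each direction, with a median of -0.05. The number in the Rag2c/c p53-/- comparison ran from 2 to 5 with 1 library left out. Without Rag2c/c p53-/- lymphoma 1, for example, Csnk2b (1.04, adjusted p = 0.0164), Gatad2b (-1.47, 0.047) and Mta1 (1.33, 0.048) were called as well.

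The NuRD complex joins the remodeling ATPases CHD3 and CHD4 to histone deacetylases, and Ikaros recruits it to DNA. Limma called 0 of its 13 genes in Atm-/- lymphomas (4 at an unadjusted p under 0.05, median log2 difference -0.07) and 0 in Rag2c/c p53-/- lymphomas (7 at an unadjusted p under 0.05, median 0.21). Of all genes tested, 52.8% had an unadjusted p under 0.05 in the former comparison and 47.3% in the latter. The most abundant was Chd4, with 15729, 19572 and 17962 normalized counts in WT thymuses 1 to 3. It had 18256, 16020, 16272, 15190 and 17147 in Atm-/- lymphomas 1 to 5. It had 17825, 19116, 16107, 14638 and 15453 in Rag2c/c p53-/- lymphomas 1 to 5. Chd4 overlapped between the groups, with a log2 difference of -0.10 in both comparisons with WT. The histone deacetylase gene Hdac1, named after its values were seen, had 4577, 5763 and 4828 in WT thymus. Its values were 4768, 6042, 7913, 5398 and 5641 in Atm-/- lymphomas. They were 10040, 11672, 7926, 9437 and 8390 in Rag2c/c p53-/- lymphomas. Every Rag2c/c p53-/- lymphoma lay above all Hdac1 values of the other groups, narrowly so against the Atm-/- group (7926 against 7913). Of all genes tested, 19.7% lay without overlap above WT thymus in this group. In 4.48% the Atm-/- lymphomas all lay below it. The log2 difference of Hdac1 from WT in Rag2c/c p53-/- lymphomas was 0.90 (SE 0.18, adjusted p = 0.00158), under the threshold on fold. Without WT thymus 2 it reached 1 and was called (adjusted p = 0.00429). Mta1, also named after its values were seen, was 34099 in Rag2c/c p53-/- lymphoma 4, against 6834, 5853, 10946 and 5152 in the other 4 of that group and 3681 to 5038 in WT thymus. Its log2 difference there was 1.21 (adjusted p = 0.0539), which became a call without Rag2c/c p53-/- lymphoma 1 (1.33, 0.048), 2 (1.38, 0.0375) or 5 (1.43, 0.0299). Gatad2b was called lower in Rag2c/c p53-/- lymphomas without Atm-/- lymphoma 2 (-1.26, 0.0433) or Rag2c/c p53-/- lymphoma 1 (-1.47, 0.047) or 3 (-1.49, 0.043), and in Atm-/- lymphomas without Rag2c/c p53-/- lymphoma 2 (-1.19, 0.0317).

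Other corepressors and remodeling partners, such as CTBP and SIN3 proteins, had 0 of 5 genes called by limma in either comparison with WT (2 in Atm-/- lymphomas and 1 in Rag2c/c p53-/- lymphomas at an unadjusted p under 0.05), with medians of -0.19 and -0.06. Ctbp2 was called higher in Atm-/- lymphomas without Atm-/- lymphoma 1 (2.89, adjusted p = 0.0438) or 2 (2.88, adjusted p = 0.0429). Smarca4, the ATPase of the BAF remodeling complex, was the most abundant of them, with a log2 difference of -0.31 in Atm-/- lymphomas and -0.24 in Rag2c/c p53-/- lymphomas. Genes for the turnover and phosphorylation of Ikaros, which include cereblon, a substrate receptor of CUL4 ubiquitin ligases, casein kinase 2 and protein phosphatase 1, had 1 of 11 called in Atm-/- lymphomas. Limma called 0 in Rag2c/c p53-/- lymphomas, and 5 had an unadjusted p under 0.05. The called gene was Csnk2b, the regulatory subunit of casein kinase 2, with 2474, 4087 and 2506 normalized counts in WT thymuses 1 to 3. It had 4881, 8509, 6595, 6090 and 5059 in Atm-/- lymphomas 1 to 5, all above the thymuses. It rose there by 1.05 on the log2 scale (SE 0.29, adjusted p = 0.0108), a call that was lost without Atm-/- lymphoma 2 (0.93, adjusted p = 0.0218), WT thymus 1 (0.93, 0.0565) or WT thymus 3 (0.94, 0.0562). In Rag2c/c p53-/- lymphomas Csnk2b stood 0.92 higher (adjusted p = 0.0253), short of the threshold on fold. It was called there without Rag2c/c p53-/- lymphoma 1 (1.04, 0.0164), Rag2c/c p53-/- lymphoma 3 (1.02, 0.0206) or WT thymus 2 (1.16, 0.0209). The catalytic subunit genes Csnk2a1 and Csnk2a2 differed from WT by -0.37 and 0.26 in Atm-/- lymphomas and by -0.18 and 0.30 in Rag2c/c p53-/- lymphomas, none of them called. Ddb1, the most abundant gene of this list, differed by 0.15 and -0.05.

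Genes known to be regulated by Ikaros family factors in T cells made up a list of 16, of which 14 were tested. Il2, at 0 to 3, and Ifng, at 0 to 13, were too low. Against WT thymus, 1 was called higher and 4 lower in Atm-/- lymphomas (all genes tested: 12.6% and 17.0%), with a median log2 difference of -0.24. The Rag2c/c p53-/- lymphomas had 1 called in each direction (all genes tested: 9.77% and 13.9%), with a median of -0.53. Myc, a growth-promoting transcription factor gene that Ikaros represses, was the gene that rose in both. WT thymuses 1 to 3 had 2495, 2985 and 2500 normalized counts. The 5 Atm-/- lymphomas had, in order, 8632, 8817, 6681, 11860 and 5936. Among Rag2c/c p53-/- lymphomas 1 to 5 the values were 5968, 6272, 7740, 8055 and 6804. Each lymphoma lay well above all thymuses, and Myc rose by 1.62 (SE 0.20, adjusted p = 4.9e-05) in Atm-/- and by 1.38 (SE 0.20, adjusted p = 0.000233) in Rag2c/c p53-/- lymphomas on the log2 scale.

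Rag1 encodes the recombinase subunit that cuts antigen receptor genes with RAG2. It was the most abundant of these genes in WT thymus and fell in both comparisons. In both lymphoma groups the means of Notch1, Cd4 and Cd8a were above that of Rag1. The normalized counts of Rag1 were 48182, 70834 and 51074 in WT thymuses 1 to 3. In Atm-/- lymphomas 1 to 5 the values were 6304, 5755, 5496, 7116 and 2383. Rag2c/c p53-/- lymphomas 1 to 5 had 11239, 5620, 23493, 8465 and 18170. No lymphoma came near the thymuses, and the log2 fold change of Rag1 was -3.46 (adjusted p = 5.17e-05) in Atm-/- and -2.24 (adjusted p = 0.00147) in Rag2c/c p53-/- lymphomas. The chains of the CD8 coreceptor also fell in Atm-/- lymphomas, Cd8b1 with -1.66 (adjusted p = 0.00487) and Cd8a with -1.49 (adjusted p = 0.00372). Dntt, which adds nucleotides at the joints of receptor genes, fell there with -1.07 (adjusted p = 0.00837), a call lost without Atm-/- lymphoma 1 (-0.88), Atm-/- lymphoma 5 (-0.97) or WT thymus 2 (-0.91).

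The Notch targets on this list, which Ikaros is known to restrain, split the Atm-/- lymphomas. Hes1, a repressor that Notch induces, had 251, 315 and 247 normalized counts in WT thymuses 1 to 3. Atm-/- lymphomas 1 to 5 had 1221, 5520, 211, 3418 and 248. The 5 Rag2c/c p53-/- lymphomas had, in order, 107, 1094, 1024, 1569 and 229. Atm-/- lymphomas 1, 2 and 4 were far above the thymuses and lymphomas 3 and 5 at or below them, and the same 3 were the highest of their group for Dtx1, Nrarp, Notch1, Notch3, Ptcra and Il2ra. Notch1 stood at 45260, 62925, 5365, 28906 and 5481 in Atm-/- lymphomas 1 to 5, and between 9029 and 10854 in WT thymus. Ptcra, the surrogate alpha chain of the early T-cell receptor, stood at 1134, 8050, 143, 5456 and 243 in the same lymphomas, and between 1107 and 1420 in WT thymus. None of these 7 genes was called in any comparison with all libraries. Among them Il2ra, the alpha chain of the interleukin 2 receptor, was called lower against WT in Rag2c/c p53-/- lymphomas without Atm-/- lymphoma 3 (-4.12, adjusted p = 0.0477). Of the family, Ikzf2 and Ikzf4 were also highest in lymphomas 1, 2 and 4 of this group, while Ikzf1 was lowest in lymphoma 2 and highest in lymphoma 4. In the Rag2c/c p53-/- group Hes1 and Ikzf4 were highest in lymphomas 2, 3 and 4, but Ikzf2 in 3, 4 and 5. These patterns were read from 5 libraries of each group after the values were seen and were not tested.

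Between the lymphoma groups 2 of the 43 cofactor and target genes were called (4.65%, against 7.84% of all genes tested), with a median difference of 0.07. Limma called 0 of 13 NuRD genes, 0 of 5 other corepressors and 0 of 11 turnover genes there, with 5, 0 and 1 at an unadjusted p under 0.05 and medians of -0.15, -0.07 and 0.13. Il7r, the receptor for interleukin 7, which keeps early T cells alive, was higher in Atm-/- lymphomas by 2.52 (SE 0.56, adjusted p = 0.0114). Its normalized counts were 7078, 3387, 2860, 6581 and 5901 in Atm-/- lymphomas 1 to 5. They were 1967, 426, 1512, 188 and 1790 in Rag2c/c p53-/- lymphomas 1 to 5, so the groups did not overlap, and 2206, 1819 and 2398 in WT thymuses 1 to 3. Cd8b1 was lower in Atm-/- lymphomas, with a difference of -1.21 (adjusted p = 0.0388). That call was lost without any 1 of Atm-/- lymphomas 1, 4 and 5, Rag2c/c p53-/- lymphomas 2 to 5 or WT thymuses 1 and 3, with adjusted p from 0.052 to 0.0941. The number called ran from 1 to 3 with 1 library left out and was 4 without the 3 libraries of fewest reads, which added Cd8a (-1.20, adjusted p = 0.00093) and Rag1 (-1.53, 0.0318). Rag1 was also called without Rag2c/c p53-/- lymphoma 2 alone (-1.48, 0.0154) and Cd8a without Atm-/- lymphoma 2 alone (-1.31, 0.0011).

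**Figure D3:**
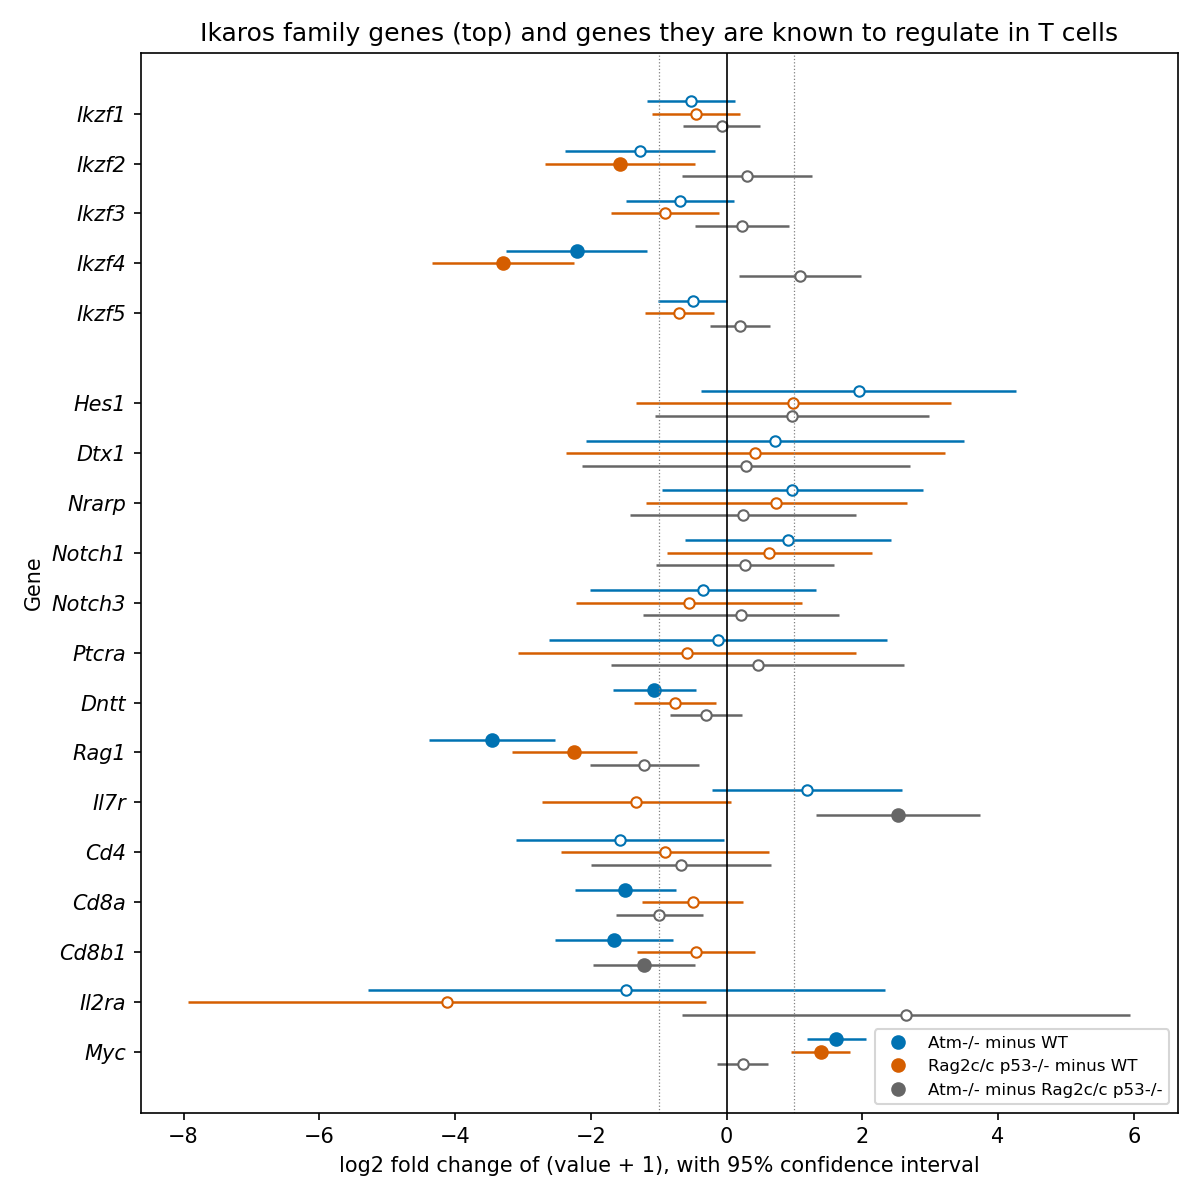
Log2 fold change of the 5 family genes and of 14 tested genes they are known to regulate in T cells, with 95% confidence intervals, for each lymphoma group minus WT thymus and for Atm-/- minus Rag2c/c p53-/- lymphomas. Filled points passed the test, and dotted lines mark the threshold on fold.

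The genes altered in the mice were read as a check of the labels. Atm had 1990, 1559 and 2274 normalized counts in WT thymuses 1 to 3. It had 732, 208, 445, 568 and 534 in Atm-/- lymphomas and 1248, 439, 1315, 552 and 1154 in Rag2c/c p53-/- lymphomas. Trp53 had 4387, 6341 and 4498 in WT thymus, 6853 to 11318 in Atm-/- and 2018 to 5461 in Rag2c/c p53-/- lymphomas. Transcripts of both loci were thus still counted in the mice that lack the protein, and gene totals do not tell altered from normal transcripts. Rag2 stood at 4199 to 5409 in WT thymus, 46 to 1025 in Atm-/- and 260 to 790 in Rag2c/c p53-/- lymphomas.

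Helios and Eos are both expressed in regulatory T cells, so marker lists of cell types a thymus can hold were read beside them. Of 6 regulatory T cell markers, 3 were called lower than in WT in Atm-/- lymphomas and the same number in Rag2c/c p53-/- lymphomas, Foxp3, Tnfrsf4 and Tnfrsf18 in each. For this and the lists that follow, 17.0% and 13.9% of all genes tested were called lower in these comparisons. Foxp3, the transcription factor that defines these cells, had 236, 240 and 240 normalized counts in WT thymuses 1 to 3. The 5 Atm-/- lymphomas had, in order, 14, 9, 2, 0 and 9. Among Rag2c/c p53-/- lymphomas 1 to 5 the values were 10, 7, 15, 1 and 6. All lymphomas were thus near 0, and Foxp3 fell with log2 fold changes of -5.48 (adjusted p = 0.000241) and -5.05 (adjusted p = 0.000603). The summed level of the 6 markers was 5830, 5233 and 5612 in WT thymus, and 652, 966, 1793, 1116 and 765 in Rag2c/c p53-/- lymphomas 1 to 5. For Atm-/- lymphomas 1 to 5 it was 5414, 18189, 590, 10802 and 707. The most abundant marker was Il2ra, which T-cell progenitors express as well and which stood at 4204, 17248, 50, 9640 and 93 in these lymphomas. Of the markers, Foxp3 alone was at 0 in any library, Atm-/- lymphoma 4. Between the lymphoma groups 1 marker, Tnfrsf4, was called lower in Atm-/- lymphomas (-1.09, adjusted p = 0.0179), but not without Atm-/- lymphoma 4 (-0.95) or the 3 libraries of fewest reads (-1.05, adjusted p = 0.0513). The part of regulatory T cells in the Ikzf2 and Ikzf4 differences was not tested.

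Of 5 markers of mature thymocytes 3 were called lower in Atm-/- lymphomas (Cd69, S1pr1 and Ccr7) and 4 in Rag2c/c p53-/- lymphomas (these and Itgb7). The call of Itgb7 was lost without any 1 of the thymuses (adjusted p 0.0521 to 0.0567), and Klf2 was called without Rag2c/c p53-/- lymphoma 3 (-2.69, adjusted p = 0.0311). The summed level was 9572, 9590 and 9209 in WT thymuses 1 to 3. It was 3291, 5917, 1647, 2495 and 3035 in Atm-/- lymphomas 1 to 5. It was 1014, 1719, 3645, 1764 and 1101 in Rag2c/c p53-/- lymphomas 1 to 5. All lymphomas lay below the thymuses in this sum, and the lymphoma groups overlapped. The most abundant marker was Itgb7, and none was at 0. Between the lymphoma groups limma called 0 of the 5, with 1 at an unadjusted p under 0.05, and S1pr1 was called higher in Atm-/- lymphomas without Atm-/- lymphoma 3 (1.81, adjusted p = 0.0457) or 5 (1.88, adjusted p = 0.0347). Without the 3 libraries of fewest reads Ccr7 was called higher there (adjusted p = 0.0323). Their part in the result was not tested.

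Cells outside the T lineage were marked by further lists. Of 5 B cell markers 3 were called lower in Atm-/- lymphomas and 4 in Rag2c/c p53-/- lymphomas. Their sum was 10486, 13910 and 9916 in WT thymus, 4469, 6144, 3169, 27355 and 2296 in Atm-/- and 3882, 1273, 10818, 22351 and 2916 in Rag2c/c p53-/- lymphomas, led by Ighm, which T cells can also transcribe. Ms4a1 in Atm-/- lymphoma 4 and Pax5 in Rag2c/c p53-/- lymphoma 4 were at 0. Of 7 markers of NK and innate-like lymphocytes 5 were called lower in each comparison with WT. Tbx21, the most abundant of them in both lymphoma groups but not in WT thymus, was called higher in Rag2c/c p53-/- lymphomas. Their sum was 1319, 1151 and 1270 in WT thymus, 642, 278, 727, 105 and 409 in Atm-/- and 1477, 754, 1028, 1121 and 766 in Rag2c/c p53-/- lymphomas. Ncr1 was at 0 in Atm-/- lymphomas 1, 2 and 4 and Rag2c/c p53-/- lymphoma 2, Klrd1 in Atm-/- lymphomas 3 and 4, and Eomes in Atm-/- lymphomas 2 and 4. Of 6 markers of thymic epithelium 3 and 4 were called lower. Their sum was 1058, 725 and 1049 in WT thymus, 230, 189, 389, 609 and 452 in Atm-/- and 287, 1320, 904, 508 and 1029 in Rag2c/c p53-/- lymphomas. By group mean Epcam led in Rag2c/c p53-/- lymphomas, and Ccl25 in Atm-/- lymphomas and WT thymus. Psmb11, made by cortical thymic epithelium, stood at 91, 36 and 122 in the thymuses and at 0 or 1 in every lymphoma, and Foxn1 was at 0 in Atm-/- lymphomas 2 and 3. The part of these cells in the family's lower values was not tested.

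Further lists covered stroma, myeloid, erythroid and T-lineage cells and early progenitors. Of all genes tested, 12.6% were called higher in Atm-/- lymphomas and 9.77% in Rag2c/c p53-/- lymphomas. Of 6 markers of fibroblasts and endothelium 4 were called higher in Atm-/- lymphomas, and 3 higher and 1 lower in Rag2c/c p53-/- lymphomas. Their sum was 3846, 3775 and 3709 in WT thymus, 10910, 7802, 11378, 20727 and 14970 in Atm-/- and 4751, 5809, 6512, 2944 and 5579 in Rag2c/c p53-/- lymphomas, led by Pecam1, with Cdh5 at 0 in Rag2c/c p53-/- lymphoma 2. Of 6 myeloid markers 3 were called higher in Atm-/- lymphomas and 1 in Rag2c/c p53-/- lymphomas. Their sum was 5067, 4198 and 5358 in WT thymus, 10419, 6787, 9021, 11959 and 10441 in Atm-/- and 6451, 4009, 6479, 8608 and 7794 in Rag2c/c p53-/- lymphomas, led by Lyz2, with none at 0. Of 5 tested erythroid markers 2, Epor and Klf1, were called higher in each. Their sum, led by Hbb-bs, ran from 889 to 6245 in Atm-/-, 816 to 4752 in Rag2c/c p53-/- lymphomas and 942 to 2128 in WT thymus. Of 8 T-lineage markers 1, Cd5, was called lower in each, and none was at 0 in any library. Their sum, led by Thy1, ran from 63872 to 114137 in Atm-/- lymphomas, 59670 to 113629 in Rag2c/c p53-/- lymphomas and 75432 to 117239 in WT thymus, so T-cell transcripts were abundant in every group. Of 5 tested markers of early progenitors, Kit and Flt3 were called lower in Atm-/- lymphomas and limma called 0 in Rag2c/c p53-/- lymphomas (2 at an unadjusted p under 0.05), with medians of -1.48 and -0.61. Their sum was 5496, 4761 and 5470 in WT thymus, 5632, 17453, 476, 9995 and 2544 in Atm-/- and 4724, 1530, 2239, 1681 and 1726 in Rag2c/c p53-/- lymphomas. By group mean Il2ra led in WT thymus and Atm-/- lymphomas, and Cd44 in Rag2c/c p53-/- lymphomas. Hoxa9, too low to test, was at 0 in lymphomas 1, 2, 4 and 5 of each group. Leaving out 1 library ended the Atm-/- calls of Cd5 (adjusted p up to 0.0554, without WT thymus 2), Kit (0.121, WT thymus 3), Flt3 (0.14, WT thymus 3), Itgam (0.0956, WT thymus 1), Epor (0.0709, WT thymus 2), Klf1 (0.0906, WT thymus 1) and Krt8 (0.117, WT thymus 1). In Rag2c/c p53-/- lymphomas it ended those of Eomes (0.141, WT thymus 1), Pax5 (0.0646, WT thymus 3), Krt5 (0.113, WT thymus 1), Cdh5 (0.0754, WT thymus 1), Klf1 (0.0727, WT thymus 1) and Col1a1 (0.0532, WT thymus 1). It added Atm-/- calls of Cdh5 (0.0423, Atm-/- lymphoma 4), Tbx21 (0.012, Atm-/- lymphoma 4), Epcam (0.0036, Rag2c/c p53-/- lymphoma 1) and Pax5 (0.0276, Rag2c/c p53-/- lymphoma 2). It added Rag2c/c p53-/- calls of Cd2 (0.0421, Atm-/- lymphoma 3), Cd3g (0.0291, Rag2c/c p53-/- lymphoma 2) and Sparc (0.0281, Atm-/- lymphoma 4). Without the 3 libraries of fewest reads the Rag2c/c p53-/- call of Cd5 was also lost (0.0717).

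Between the lymphoma groups (all genes tested: 3.51% called higher and 4.33% lower) 4 of 7 markers of NK and innate-like lymphocytes were called. Klrb1c was higher in Atm-/- lymphomas (2.02, adjusted p = 0.0262), and Nkg7 (-1.75, 0.0159), Eomes (-2.35, 0.0447) and Tbx21 (-1.67, 0.0496) were lower. All but Tbx21 had few counts. The means in Atm-/- and Rag2c/c p53-/- lymphomas were 33.6 and 7.2 for Klrb1c, 5.0 and 17.6 for Nkg7, and 2.0 and 16.8 for Eomes. In Rag2c/c p53-/- lymphoma 2 a read was worth an estimated 3.38 normalized counts, so these differences rest on small rounded values. Of the stroma markers Col1a2 was higher (3.63, adjusted p = 8.33e-06), and of the early progenitor markers Kit was lower (-3.65, adjusted p = 0.0457). The calls of Nkg7 and Col1a2 held without any 1 library and without the 3 libraries of fewest reads. Those of Klrb1c (adjusted p up to 0.0663, without Atm-/- lymphoma 1), Eomes (0.104, Atm-/- lymphoma 4), Tbx21 (0.112, Rag2c/c p53-/- lymphoma 1) and Kit (0.109, Atm-/- lymphoma 4) were lost with 1 library left out, and all 4 without the 3 libraries (0.0967, 0.1, 0.132 and 0.163). Limma called 0 markers of B cells, thymic epithelium, myeloid, erythroid and T-lineage cells there, with 0, 4, 2, 0 and 1 at an unadjusted p under 0.05. Leaving out 1 library added Epcam (-3.01, 0.000859, Rag2c/c p53-/- lymphoma 1), Ccl25 (-1.03, 0.0134, Atm-/- lymphoma 3), Krt5 (2.37, 0.0472, Atm-/- lymphoma 2), Cd2 (2.05, 0.0218, Atm-/- lymphoma 3), Col1a1 (2.33, 0.0407, Atm-/- lymphoma 3) and Sparc (2.30, 0.0363, Rag2c/c p53-/- lymphoma 3). The part of these cells in the family's values was not tested.

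The family genes lie on 4 chromosomes, and the 3 tested genes nearest on each side of each were read to see what surrounds them. Of these 30 neighbors 3 were called higher and 3 lower in Atm-/- lymphomas than in WT (all genes tested: 12.6% and 17.0%), with a median log2 difference of 0.12. Against the same thymuses, 5 were higher and 2 lower in Rag2c/c p53-/- lymphomas (all genes tested: 9.77% and 13.9%), with a median of 0.22. Between the lymphoma groups 1 was higher in Atm-/- lymphomas (Spag16, 2.60, adjusted p = 0.0238) and limma called 0 lower (all genes tested: 3.51% and 4.33%), with a median of -0.16. Next to Ikzf4, Suox, which encodes sulfite oxidase, fell in both, with -1.15 (adjusted p = 0.000287) in Atm-/- and -1.03 (adjusted p = 0.000892) in Rag2c/c p53-/- lymphomas. On its other side Rps26, a ribosomal protein gene 4.34 kb away, had log2 differences of 1.01 and 0.66, neither called. Farther on that side, in Atm-/- lymphomas Erbb3 fell (-3.44, adjusted p = 0.0246) and Pa2g4 rose (1.10, adjusted p = 0.00175). Neither was called in Rag2c/c p53-/- lymphomas (-2.13 and 0.95). Next to Ikzf5, Acadsb, an acyl-CoA dehydrogenase gene that starts 0.08 kb from it, fell with -1.32 (adjusted p = 0.000356) and -1.16 (adjusted p = 0.00123). Ddc, the aromatic amino acid decarboxylase gene 41.2 kb from Ikzf1, rose with 3.55 and 3.79 (adjusted p = 0.000165 in each).

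Annotated genes overlap every member, but all had low values: Gm11999, inside Ikzf1 on the other strand, averaged 39.8 over the 13 libraries, and the other 7 averaged at most 8.23. Libraries were made with a stranded kit, but the strand used in counting was not stated, so a share of reads from overlapping genes cannot be told.

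The genes whose pattern was most like that of each member were found by Pearson correlation of log2 values over the 13 libraries after the mean of each group was taken away, a measure of likeness only. For Ikzf4 they were Mansc1 (r = 0.945), Socs3 (0.94) and Cotl1 (0.933), and for Ikzf2 Dclk2 (0.955), Cept1 (0.917) and Spib (0.912). For Ikzf1 they were Amotl2 (0.936), Slc9a7 (0.931) and Dvl3 (0.925). The first 2 had few counts, with means of 15.2, 4.8 and 3.3 for Amotl2 and 3.8, 2.8 and 93.0 for Slc9a7 in Atm-/- lymphomas, Rag2c/c p53-/- lymphomas and WT thymus, so their r rests on small rounded values. For Ikzf3 they were Arfgef1 (0.961), Slc45a4 (0.96) and Dusp6 (0.959). For Ikzf5 they were Snap23 (0.975), Dpm1 (0.974) and Zcchc6 (0.969). Without the 2 libraries farthest from the median of the member, r stayed between 0.81 and 0.965. An r over 0.8 was reached by 568 tested genes for Ikzf5, against 162 for Ikzf1, 159 for Ikzf3, 110 for Ikzf4 and 89 for Ikzf2.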

How the data were processed

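RNA sequencing libraries of 5 Atm-/- lymphomas, 5 Rag2c/c p53-/- lymphomas and 3 WT thymuses were analysed. Per the submitters' processing notes, the authors used bcl2fastq 1.8.3, STAR 2.4.0g1, Picard and DESeq2 1.6.3 with GRCm38. The counting tool is not given in the sources used here. The deposited values (score) are read counts that the authors divided by size factors and rounded. Their comparison columns (group means, fold change, log2 fold change, p, adjusted p and dispersion) were not used. Members and lists were chosen with earlier results of these data known, and 2 genes were later left out of marker lists for reasons other than their values. Values + 1 were log2-transformed and fitted in limma 3.58.1 (R 4.3.3) with trend and robust moderation. The 3 groups shared 1 estimate of spread, and two-sided p were adjusted by Benjamini-Hochberg over 15872 genes. The fit was also run on simulated data, of which no values are given here. Genes named by a rule set beforehand were the members, some of the nearest neighbors, the most alike genes and the altered genes. In each list they were the called genes with the largest changes and the gene with the highest mean. Other list genes were named after their values were seen. Other scalings, filters, pseudocounts, thresholds and left-out libraries were tried. Lengths and sequences came from GENCODE and the GRCm38 genome.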

Additional observations from a re-analysis of the deposited data

Results flagged for a closer look

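In 122 groups of 5 lymphomas, over the genes and marker sums described, 7 had 1 library far from the rest by Dixon's criterion on the log2 scale, and chance alone gives about 1 in 20. Cul4a, a ubiquitin ligase scaffold, was 836 in Atm-/- lymphoma 2, against 1808, 1622, 1784 and 1727 in the other 4. Cul4a was also low in Rag2c/c p53-/- lymphoma 2, with 757 against 1479, 1509, 1247 and 1335. Its relative Cul4b was 587 in Atm-/- lymphoma 2, against 1796, 1304, 1602 and 1684. Gatad2a, of the NuRD complex, was 4309 in Atm-/- lymphoma 2, against 5163, 5335, 5082 and 5189. Cd8a was 23709 in Rag2c/c p53-/- lymphoma 2, above the other 4, which had 14721, 16319, 16564 and 16374. These 5 lie in libraries of few estimated reads. Rag1 was 2383 in Atm-/- lymphoma 5, against 6304, 5755, 5496 and 7116. Cd4 was 1201 in Atm-/- lymphoma 4, against 8127, 11240, 17284 and 15187.

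Of 51 genes tested between the lymphoma groups, 6 had a limma adjusted p under 0.05 for the difference itself, Atm-/- minus Rag2c/c p53-/- on the log2 scale, against 11.4% of all genes tested that also had a mean of at least 10. The NuRD genes Mta3 (-0.70, adjusted p = 0.011) and Hdac1 (-0.68, adjusted p = 0.0114) were lower in Atm-/- lymphomas. Il7r (2.52, adjusted p = 0.0114) and Trp53 (1.38, adjusted p = 0.00328) were higher. Cd8a (-0.99, adjusted p = 0.0469) and Cd8b1 (-1.21, adjusted p = 0.0388) were lower.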

How the results depend on the processing

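Each log2 difference of a member was recomputed with 13 libraries left out in turn and under other settings. Of 330 such values 326 kept their direction and 315 also their side of the threshold. Many of these directions could not turn. A log2 difference stays the same under other filters, other moderation, a fit of only the 2 groups compared or a library left out from outside the comparison. Scalings shift all genes of a library alike. The 326 therefore does not measure how stable the directions are. The 3 libraries of fewest reads were left out together after the data were seen. The difference between lymphoma groups turned for Ikzf1 without Atm-/- lymphoma 2 (0.14) or Rag2c/c p53-/- lymphoma 3 (0.09), with a range of -0.24 to 0.14 over libraries left out. It turned for Ikzf2 without Atm-/- lymphoma 2 (-0.04, range -0.04 to 0.62) and without the 3 libraries (-0.14).

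The number of members called ran from 1 to 2 (Atm-/-), 1 to 3 (Rag2c/c p53-/-) and 0 to 1 (between lymphomas) with 1 library left out, and was 2 in Atm-/- lymphomas without the 3 libraries. The number of cofactor and target genes ran from 5 to 7, 2 to 5 and 1 to 3. It was 10 in Atm-/- lymphomas and 10 in Rag2c/c p53-/- lymphomas on adjusted p alone, and 8 in each at a fold of at least 1.5. With only the 2 groups compared it was 8 in Atm-/- lymphomas and 3 in Rag2c/c p53-/- lymphomas. Between lymphomas it was 4 with recomputed size factors, 4 with equal totals, 4 without the 3 libraries, 5 on adjusted p alone, 5 at a fold of 1.5, and 1 with only the 2 groups compared or without trend and robust moderation. Looser thresholds add calls by construction. The cause of the other changes was not tested. With the longest transcript as length, 7 of 15 levels per kb moved by more than their SD, and the order of the members was kept.

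Rounded values and unknown depth in 7 libraries limit what low values can show.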

Other observations

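The deposited table also holds a column of means made by the authors, which is not the mean of these 13 libraries. It lay within 1% of that mean for only 489 of 10763 genes with a mean of at least 100. It was above 0 for 1755 genes with 0 in all 13. Which libraries it covers was not tested. WT thymuses 1 and 3 were the closest libraries (r = 0.9961 across genes), with equal values in 131 of the 10763 genes.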
